A study of Homo sapiens with 95 samples.

Results

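The CDKN2A knockout was compared with its GFP control in AALE cells, which are bronchial epithelial cells of human origin that were immortalized, under 3 carcinogen treatments. Members were all samples whose labels give the genotypic perturbation CDKN2A or GFP and the chemical CSC, BaP or NNK. This gave 9 CDKN2A and 9 GFP samples, which is 18 of the 95 samples profiled by sparse full length (SFL) sequencing, a pooled and barcoded RNA-seq method that starts from ribosomal RNA depletion. CSC is cigarette smoke condensate and was given at 24 μg/ml, BaP is the polycyclic hydrocarbon benzo(a)pyrene and was given at 173 μM, and NNK is a tobacco-specific nitrosamine and was given at 490 μM. Each line had 3 samples with each chemical. CDKN2A cells carried a CRISPR knockout of the gene, and GFP cells had received the pSpCas9-EGFP plasmid PX458 with no guide RNA. For comparison, 3 CDKN2A and 3 GFP samples with the DMSO vehicle and 9 samples of the FAT1 knockout line with the same 3 carcinogens were used. FAT1 encodes a large cadherin. The sources used here do not give the guide, or say whether a knockout line is 1 clone or a pool. Each combination of perturbations was described by the study as 3 replicates, and nothing says that these came from independently made lines, so p-values measure only the spread between these samples. In bulk RNA, fewer cells of a type and less RNA per cell cannot be told apart.

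CDKN2A encodes p16INK4a and p14ARF from alternative first exons. p16INK4a inhibits the kinases CDK4 and CDK6, which phosphorylate the retinoblastoma protein RB1 and so release E2F factors that drive DNA replication, while p14ARF stabilizes p53 by binding MDM2. Loss of the locus on the short arm of chromosome 9 is frequent in smoking-related lung cancer, and AALE cells carry SV40 large T antigen, which itself binds RB1 and p53.

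The 18 libraries held 338978 to 1548052 counted reads each, so that 3 counts correspond to between 1.94 and 8.85 CPM, the count scaled to library size. CDKN2A samples were shallower than GFP samples with CSC (485031 to 864679 against 987704 to 1517412) and overlapped them with BaP (629626 to 1179828 against 481230 to 1034225) and with NNK (515757 to 1548052 against 338978 to 774472). The 7 markers of airway basal epithelium were all detected in both lines and summed to between 3928 and 5873 CPM in CDKN2A samples and between 5574 and 7127 CPM in GFP samples. The 7 fibroblast markers summed to between 33.0 and 65.1 CPM in CDKN2A and between 13.4 and 53.7 CPM in GFP samples, with COL3A1 at 0 reads in both lines. Leukocyte markers summed to at most 26.8 CPM with CD3E at 0, endothelial markers to at most 5.78 CPM with CDH5 at 0, and ciliated and secretory markers to at most 1.98 CPM with SNTN, SCGB1A1, SCGB3A1 and MUC5AC at 0. The part of these markers in the results was not tested.

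The targeted gene was lower in every CDKN2A sample than in every GFP sample, but its transcript was still counted in all of them. With CSC, CDKN2A stood at 6.13, 5.77 and 5.84 log2 CPM in the CDKN2A samples and at 6.93, 6.92 and 6.66 in the GFP samples. With BaP, CDKN2A was 5.68, 5.89 and 5.68 against 6.86, 6.58 and 6.79 in GFP. With NNK, CDKN2A was 5.91, 5.20 and 5.54 against 7.25, 6.54 and 6.98 in GFP. No chemical showed an overlap between the lines. CDKN2A reads numbered between 26 and 68 per CDKN2A sample and between 43 and 178 per GFP sample. Averaged over chemicals, the difference was -1.09 log2 CPM (exact permutation test with genotype permuted within chemical, 2-sided, p = 0.00025, the smallest that 8000 permutations allow). In the model over all genes the CDKN2A log2 fold change was -1.19 ± 0.11 (SE; 9 against 9 samples), with -0.96 for CSC, -1.05 for BaP and -1.56 for NNK. FAT1 cells with carcinogens had between 6.43 and 7.10 log2 CPM of CDKN2A, a range that overlapped that of the GFP samples, and the CDKN2A line was lower than FAT1 by a log2 fold change of -1.07 ± 0.10. A knockout by a small insertion or deletion need not remove the transcript, so these RNA levels check the labels only in their direction.

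**Figure D1:**
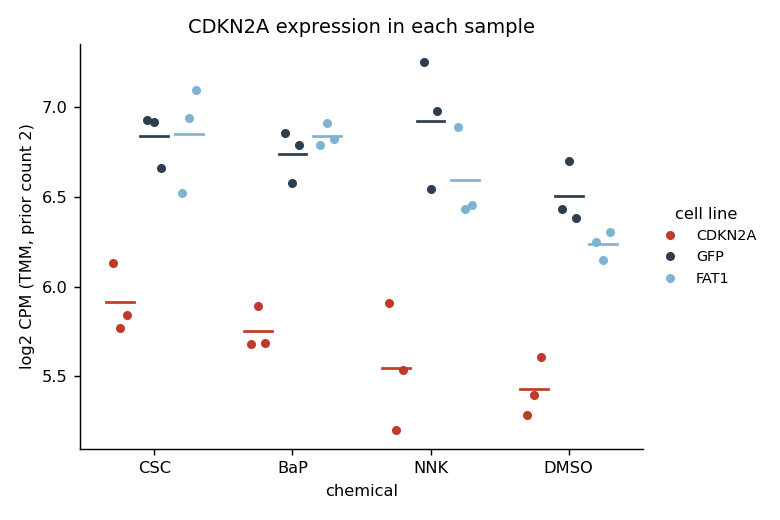
Expression of CDKN2A in log2 CPM in each CDKN2A, GFP and FAT1 sample by chemical and with DMSO, with each point a sample and each horizontal bar the mean of 3 samples. The CDKN2A samples lie between 5.20 and 6.13 with the carcinogens, below all GFP samples, which lie between 6.54 and 7.25.

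Reads of both CDKN2A transcripts fall under 1 symbol in the files, at chr9:21967751-21995300 on the minus strand of GRCh37. The 250 bases before each start site (RefSeq, GRCh38.p14, minus strand) are shown because the 2 transcripts have separate promoters: the upstream window, chr9:21995325-21995574, belongs to the p14ARF transcript and the downstream window, chr9:21974858-21975107, to the p16INK4a transcript.
CDKN2A upstream start: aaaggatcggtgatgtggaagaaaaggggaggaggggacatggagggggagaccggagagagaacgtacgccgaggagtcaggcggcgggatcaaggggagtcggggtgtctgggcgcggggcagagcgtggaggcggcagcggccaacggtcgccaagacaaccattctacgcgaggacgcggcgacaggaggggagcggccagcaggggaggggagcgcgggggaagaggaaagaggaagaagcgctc
CDKN2A downstream start: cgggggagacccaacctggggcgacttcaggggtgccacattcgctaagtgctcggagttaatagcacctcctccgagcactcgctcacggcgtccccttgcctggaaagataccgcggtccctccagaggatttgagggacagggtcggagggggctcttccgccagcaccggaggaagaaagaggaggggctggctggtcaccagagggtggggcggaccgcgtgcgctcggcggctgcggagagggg
Neither window held the E2F letters TTTCGCGC or TTTGGCGC, the ETS letters CCGGAA or the AP-1 letters TGACTCA or TGAGTCA on either strand. Among 35116 promoter windows of this length, 0.968% held the E2F letters, 14.5% the ETS letters and 4.2% the AP-1 letters.

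Genes around CDKN2A were lower in the knockout line as well. A list of 10 genes of the locus had 8 members tested, and all 8 were lower in the common effect over the 3 chemicals (adjusted p, the Benjamini-Hochberg Q-value of limma-voom over all 14277 genes tested, under 0.05), where 25% of all genes were called lower and 25.9% higher. ELAVL2, a neuronal RNA-binding protein gene, had the largest difference, with 3.84, 4.36 and 4.91 log2 CPM as the lowest, median and highest of the 9 CDKN2A samples and 5.60, 5.95 and 6.26 for GFP. Its log2 fold change was -1.70 ± 0.15. MTAP, which encodes a methionine salvage enzyme and is often lost together with CDKN2A in tumours, ranged from 5.95 to 6.65 in CDKN2A and from 6.68 to 7.19 in GFP samples, a log2 fold change of -0.73 ± 0.09. CDKN2B, which encodes the related inhibitor p15INK4b, ranged from 5.71 to 6.03 against 5.93 to 6.44 with overlapping groups and a log2 fold change of -0.39 ± 0.10 (Q-value 0.0011). The antisense transcript CDKN2B-AS1 differed by -1.23 ± 0.22 and KLHL9, a ubiquitin ligase adaptor, by -0.77 ± 0.11. CDKN2B-AS1 overlaps CDKN2A and CDKN2B on the other strand and the strand setting of the counting is not given in the sources used here, so their reads cannot be told apart with certainty. The interferon gene IFNE and DMRTA1 had at most 10 and 15 reads in a GFP sample, with log2 fold changes of -1.15 ± 0.33 and -0.78 ± 0.31.

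Most genes of the short arm of chromosome 9 were lower, and CDKN2A was not its most changed gene. Among 9805 genes of known position whose mean count reached 10, the 108 genes of 9p had a median log2 fold change of -0.73, with 87 called lower and 1 higher, against a median of -0.02 for all 9805. The 1 gene called higher was TPM2, with a log2 fold change of 2.34. CDKN2A ranked as number 18 from the lowest of these 108 genes. Near the telomere the arm was uneven. DOCK8 (0.38), PUM3 (-0.06), CDC37L1 (0.02) and RCL1 (0.02) were not called there, whereas SMARCA2 (-1.02) and AK3 (-0.51) were called lower. The 39 genes before CDKN2A, counted from the telomere, had a median of -0.72, the 54 genes after it and before MELK a median of -0.67, and the 14 genes from MELK to the centromere a median of -1.52. Every one of these 14 genes was lower, between -0.60 for ALDH1B1 and -2.25 for MELK, an embryonic leucine zipper kinase gene that is high in dividing cells. Other arms stood apart as well. Medians were -0.58 for 7q (281 genes), -0.55 for 13q (173), -0.44 for 10p (82) and -0.43 for 12p (118), and on the other side 0.75 for 4q (253), 0.46 for 3q (313), 0.45 for 22q (225) and 0.44 for 11q (380). Of the 253 genes of 4q, 210 were called higher. The arm of a gene accounted for 24.5% of the variance of the common log2 fold change over these genes, and for 21.9% in the DMSO samples, which were not part of that fit. In DMSO the medians were -0.73 for 9p and 0.66 for 4q. Against FAT1, where the CDKN2A samples are the same ones, 9p had a median of -0.76, 7q of -0.73 and 4q of 0.65, while 13q had -0.19 and 10p 0.16. Copy number was not measured, and its part in these differences was not tested.

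**Figure D2:**
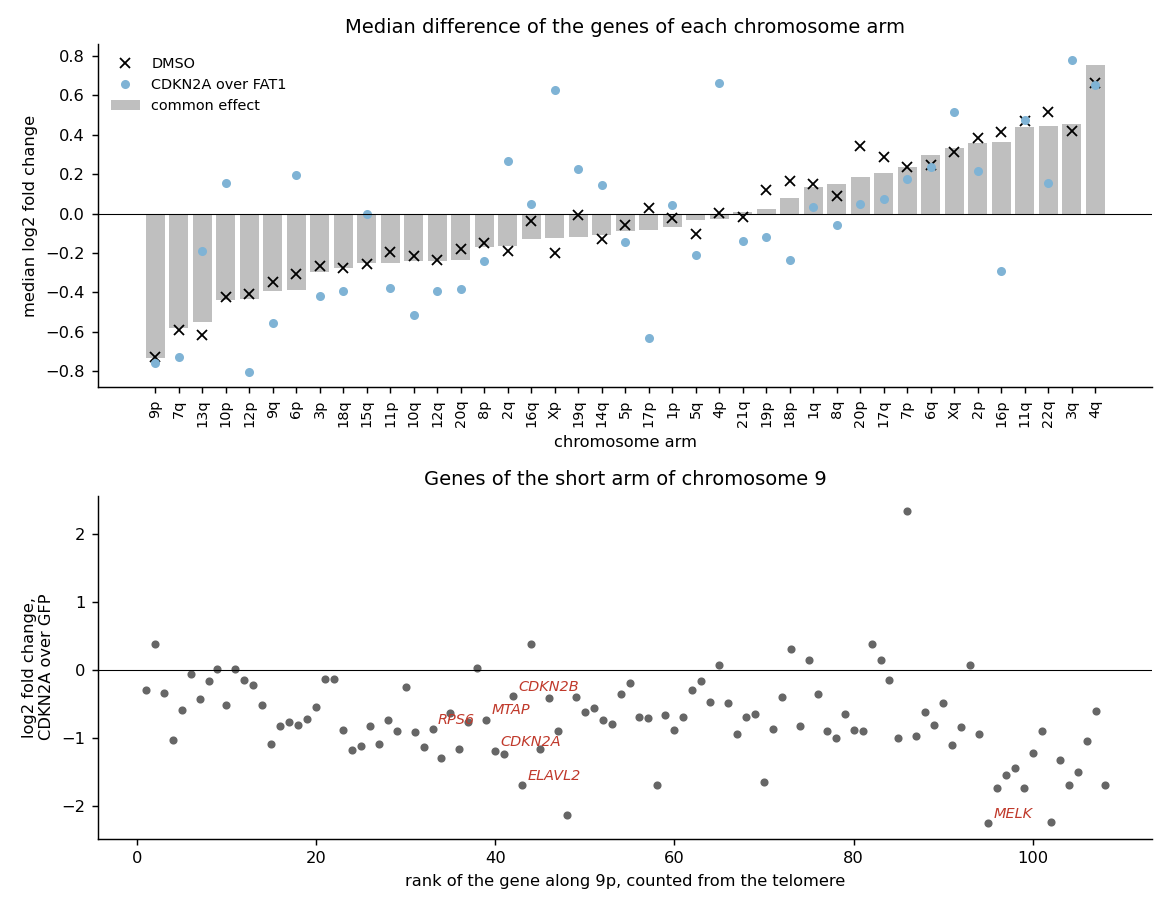
Top, the median log2 fold change of the genes of each chromosome arm for the common effect (bars), the DMSO samples (crosses) and CDKN2A over FAT1 (circles). Bottom, the common log2 fold change of each of the 108 genes of 9p by rank from the telomere, where 96 lie below 0 and the last 14 have a median of -1.52.

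The common signature of the CDKN2A line was broad. Of 14277 genes with a mean count above 1, 7269 passed a Q-value of 0.05 in the model with chemical as covariate, with 3702 higher (25.9%) and 3567 lower (25%) in CDKN2A. The change was at least 1 on the log2 scale in 1258 genes that were higher and 688 that were lower. Within CSC 4466 genes passed (31.3%), within BaP 4538 (31.8%) and within NNK 4199 (29.4%). Genes past the threshold in each of the 3 chemicals with the same sign numbered 2229, of which 1149 were higher (8.05%) and 1080 lower (7.56%). The remaining genes were called in 0 chemicals (7294), in 1 (2997) or in 2 (1752), and 5 were called in all 3 without a common sign. Of the 2229 genes, 2228 could be tested in the 6 DMSO samples, where 5408 of 14540 genes passed (37.2%). All 2228 had the same sign there and 2112 (94.8%) were called with it.

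Most of the largest rises were genes with few or no reads in GFP. The imprinted long non-coding RNA gene H19 had between 26 and 107 reads per CDKN2A sample and between 0 and 4 per GFP sample. The receptor tyrosine kinase gene ROS1 had between 23 and 115 reads against 0 to 4. The rule that named the largest rises required no overlap between the lines within any chemical. The separation for H19 and ROS1 follows from it. Others among the 15 largest rises were FKBP10, EPDR1, FBN2, SLCO4C1, PCYT1B, SAMD5, PRKD1, PLEKHG4, LMTK3, RN7SL3 and BHMT2, down to a log2 fold change of 3.61. FBN2 encodes fibrillin-2 of elastic microfibrils and had 16 to 86 reads per CDKN2A sample and 0 to 2 per GFP sample. FKBP10 is a prolyl isomerase gene of collagen folding. FKBP10 ranged from 4.44 to 5.41 log2 CPM in FAT1 samples and from 5.19 to 6.03 in CDKN2A samples, whereas no GFP sample exceeded 2.09. Both knockout lines therefore stood above GFP for FKBP10. Against FAT1, all 15 rises were called, 12 of them by at least 1 on the log2 scale, where 27.6% of 14261 genes were called higher. That share is not a like background, because the CDKN2A samples in this comparison are those that chose the genes. Genes with few GFP reads also met the count rule through their CDKN2A reads. RN7SL3 is a signal recognition particle RNA gene with near-identical copies, so its count is uncertain, and it was the exception in GFP with 10 to 37 reads per sample. Fitted values for genes with 0 reads in many GFP samples depend on the prior count and are no bound.

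The largest fall was IRX2, a homeobox gene, with 1 read over the CDKN2A samples and between 38 and 112 reads in each GFP sample. The ratio of 631 reads to 1 is 697 after scaling to the reads counted in each line, with a 95% exact counting interval from 125 to 27571. FAT1 samples held between 55 and 232 reads of IRX2. The low level was thus found in the CDKN2A line alone of the 3 lines examined. KLK5, a serine protease gene of keratinocyte shedding, stood at 1.16, 1.76 and 2.46 log2 CPM as the lowest, median and highest CDKN2A sample and at 4.55, 4.95 and 5.26 in GFP, a log2 fold change of -4.05 ± 0.34. GBP6, an interferon-induced guanylate-binding protein gene, differed by -3.51 ± 0.34. In FAT1 cells KLK5 ranged from 1.16 to 2.62 and GBP6 from 1.16 to 2.44, overlapping the CDKN2A samples, and the test of CDKN2A against FAT1 gave Q-values of 0.81 and 0.736. PXDN, a peroxidase gene that crosslinks collagen IV, fell by 3.42 ± 0.25 on the log2 scale. IGFBP2, which encodes an IGF-binding protein, fell by 2.84 ± 0.22, and PCDH1, a protocadherin gene of the airway epithelium, by 2.65 ± 0.22. MELK and TRMT10B of 9p were among the 15 largest falls, together with CKMT1B, ZSCAN18, PLCD1, NEBL, ZNF793 and OLFML2A, which reached a log2 fold change of -2.18. CKMT1B has a near-identical copy and its count is uncertain. Against FAT1, where 26.9% of genes were called lower, 11 of the 15 falls were called lower, and ZSCAN18 and ZNF793 were called in the opposite direction. Here too the CDKN2A samples are those that chose the genes, so that share is not a like background. FAT1 samples had at most 4 reads of ZSCAN18 and at most 3 of ZNF793.

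**Figure D3:**
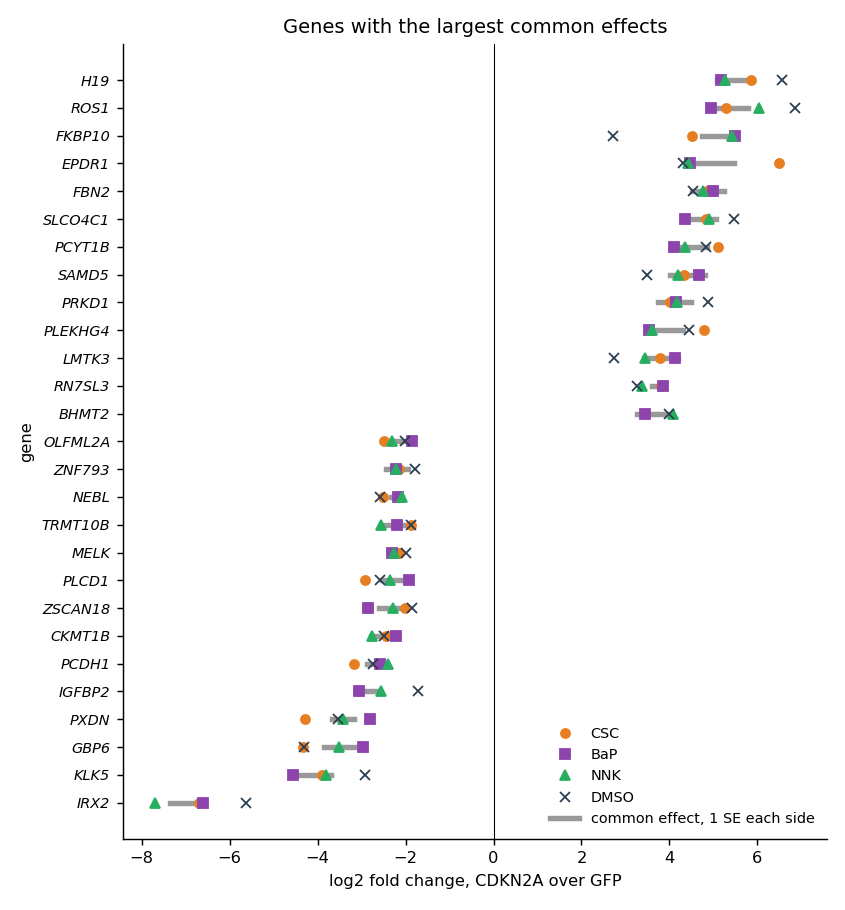
Log2 fold changes of CDKN2A over GFP for the genes named among the 15 largest rises and 15 largest falls, with the common effect and its standard error, the effects within CSC, BaP and NNK, and the effect in the DMSO samples. The smallest rise is 3.61 and the smallest fall -2.18 in the common effect. All these genes keep their side of 0 with each chemical, which the rule that chose them required, and with DMSO, which it did not use.

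The cell cycle genes next to p16INK4a moved unevenly. Of 16 D cyclins, CDKs, RB family members and CDK inhibitors, 3 were higher and 11 lower, where 25.9% of all genes were higher and 25% lower. The list had a median log2 fold change of -0.48 against 0.01 for all genes tested. CCND1, the gene of cyclin D1 that activates CDK4 and CDK6, was the exception in size: CDKN2A samples ranged from 7.40 to 7.95 log2 CPM with a median of 7.61, and GFP samples from 5.08 to 6.49 with a median of 5.63. The CCND1 groups did not overlap and differed by 1.92 ± 0.11 (Q-value 5.07e-23). Its kinase partner CDK6 went the other way, with 6.56 to 7.07 log2 CPM against 7.87 to 8.21 in GFP, a log2 fold change of -1.23 ± 0.07. RB1, the substrate of these kinases, ranged from 6.94 to 7.58 against 8.08 to 8.52 and differed by -1.02 ± 0.07. RBL1 and RBL2, the other pocket proteins, fell by 0.62 ± 0.07 and 0.52 ± 0.08. Among the inhibitors CDKN1B, which encodes p27, fell by 0.86 ± 0.13 and CDKN1C, which encodes p57, by 0.74 ± 0.17, whereas CDKN1A, which encodes p21, rose by 0.22 ± 0.06 with overlapping groups. The CDKN1A difference varied with the chemical (interaction Q-value 0.0431), with 0.22 for CSC, 0.45 for BaP and -0.08 for NNK. CDK6 lies on 7q and RB1 on 13q, whose genes had arm medians of -0.58 and -0.55. With the arm median subtracted from each gene, an alternative added after seeing the data, the list had a median of -0.37. Against FAT1, CCND1 was higher by 1.74, CDK6 differed by -0.93 and RB1 by -0.34.

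Mitotic genes were lower. Of 20 genes 16 fell and only CCNA2 rose, with a median of -0.63, and with -0.49 after the arm medians were subtracted. For this and the other lists of this paragraph, 25% of all genes were called lower than in GFP and 25.9% higher. TOP2A, the topoisomerase gene expressed from S phase to mitosis, ranged from 9.32 to 9.82 log2 CPM with a median of 9.52 in CDKN2A and from 10.60 to 10.86 with a median of 10.62 in GFP samples. The TOP2A groups did not overlap and differed by -1.14 ± 0.04 (Q-value 7.4e-32). MKI67, the gene of the proliferation antigen Ki-67, fell by 0.73 ± 0.04, the kinesin gene KIF11 by 0.93 ± 0.07 and CENPF of the kinetochore by 0.74 ± 0.04. CCNA2, the cyclin A2 gene on 4q, rose by 0.41 ± 0.10. Genes of E2F and DNA replication were mixed, with 4 of 26 higher and 13 lower and a median of -0.16. Against FAT1, 10 of these 26 were called higher and 6 lower. MCM7 of the replicative helicase fell by 0.92 ± 0.07, CDT1, which licenses origins, by 0.97 ± 0.10 and RRM1, the large subunit of ribonucleotide reductase, by 0.56 ± 0.06. RRM2, the small subunit of the same enzyme, rose by 0.85 ± 0.07, from between 7.24 and 7.66 log2 CPM in GFP to between 8.20 and 8.58 in CDKN2A. Clustered histone genes fell in 10 of 15 members and rose in 1, with a median of -0.51 that became -0.14 after arm medians were subtracted. Histone genes are near-identical copies and their counts are uncertain. Against FAT1, TOP2A differed by -0.26 and MKI67 by -0.70, and 13 of the 20 mitotic genes were called lower and 3 higher, where 26.9% of all genes were called lower and 27.6% higher. Growth was not measured, and the share of dividing cells in each well was not tested.

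**Figure D4:**
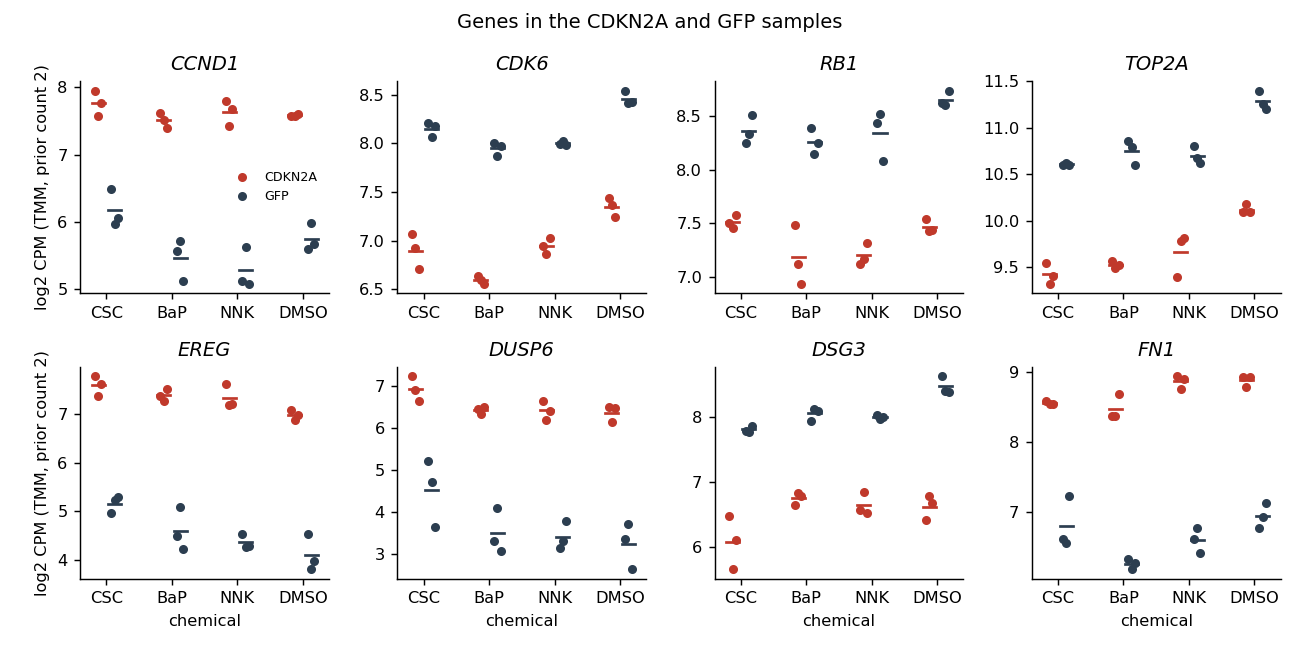
Expression in log2 CPM of 8 genes in each CDKN2A and GFP sample by chemical and with DMSO, with each point a sample and each horizontal bar the mean of 3 samples. CCND1, EREG, DUSP6 and FN1 are higher in CDKN2A and CDK6, RB1, TOP2A and DSG3 are lower, with no overlap between the lines over the 3 carcinogens.

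Genes of EGF signalling rose together. Of 19 EGF ligands, receptors and ERK feedback genes, 17 were higher and 1 lower, where 25.9% of all genes were higher and 25% lower. The list had a median of 0.96, which stayed at 0.88 after the arm medians were subtracted. Among the ligands EREG, the epiregulin gene, stood at 7.19, 7.39 and 7.79 log2 CPM as the lowest, median and highest CDKN2A sample and at 4.21, 4.53 and 5.28 in GFP. The EREG groups were apart by more than their own ranges, and the log2 fold change was 2.71 ± 0.13 (Q-value 2.19e-26). EPGN, BTC and AREG, which encode the ligands epigen, betacellulin and amphiregulin, rose by 2.22 ± 0.23, 1.34 ± 0.39 and 1.31 ± 0.27. EREG, EPGN, BTC and AREG all lie on 4q, whose genes had an arm median of 0.75. HBEGF on 5q rose by 1.22 ± 0.23. Among receptors EGFR rose by 0.75 ± 0.05, with 9.42 to 9.67 log2 CPM against 8.29 to 9.13 in GFP. ERBB3, the receptor gene for neuregulins, fell by 1.27 ± 0.14. Feedback genes of the ERK cascade followed the ligands: the phosphatase gene DUSP6 ranged from 6.21 to 7.24 against 3.06 to 5.21 and rose by 2.76 ± 0.19, and SPRY4, a Sprouty inhibitor gene, rose by 2.16 ± 0.24. SPRY2, of the same family, had a log2 fold change of -0.33 ± 0.26 that did not pass. Against FAT1, 16 of the 19 genes were called higher and 2 lower, where 27.6% of all genes were higher and 26.9% lower. EREG stood at 2.75 and DUSP6 at 2.97 in that comparison.

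Immediate early genes and MYC were also higher than in GFP, with 9 of 13 AP-1, EGR1 and MYC genes up and KLF4 down. Among all genes 25.9% were called higher and 25% lower. Against FAT1, 4 of the 13 were called higher and 4 lower, where 27.6% of all genes were higher and 26.9% lower. MYC, a growth-promoting transcription factor gene, ranged from 7.38 to 8.02 log2 CPM in CDKN2A against 5.16 to 6.72 in GFP and rose by 1.54 ± 0.11. EGR1, a zinc finger gene induced by ERK signalling, rose by 1.14 ± 0.08 and FOSL1, the gene of the AP-1 subunit FRA1, by 1.02 ± 0.16. JUN had a log2 fold change of 0.09 ± 0.10. The FAT1 samples of EGR1 lay between 8.37 and 8.91, in the range of the CDKN2A samples, which were between 8.23 and 9.10, and the difference from FAT1 was 0.12 with a Q-value of 0.0858.

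Genes of the junctions that hold epithelial cells together were mostly lower. Of 12 desmosome and cadherin genes 11 fell and 1 rose, where 25% of all genes were lower and 25.9% higher. The list had a median of -0.70, or -0.66 with arm medians subtracted. DSP, the gene of desmoplakin, which links desmosomes to keratin, had a lowest, median and highest of 10.46, 10.88 and 11.23 log2 CPM in CDKN2A and 11.84, 11.93 and 12.20 in GFP samples. DSP groups did not overlap and differed by -1.07 ± 0.03 (Q-value 2.16e-37). The desmosomal cadherin DSG3 ranged from 5.66 to 6.85 against 7.78 to 8.13 and fell by 1.44 ± 0.08. DSC3 and DSG2, other desmosomal cadherin genes, fell by 1.13 ± 0.07 and 0.90 ± 0.05, and CDH1, which encodes E-cadherin, by 0.61 ± 0.05. PKP2 of 12p, a plakophilin gene, was the member that rose, by 0.36 ± 0.10. Against FAT1, 11 of the 12 were called lower and none higher, where 26.9% of all genes were lower and 27.6% higher. DSG3 differed by -1.43 from FAT1. CDH3, the exception there, differed by 0.02.

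Basal keratins and hemidesmosome genes had no common direction, with 6 of 16 higher and 5 lower, where 25.9% of all genes were higher and 25% lower. COL17A1, a transmembrane collagen gene of the hemidesmosome, fell by 1.11 ± 0.05, from between 9.09 and 9.52 log2 CPM in GFP to between 7.77 and 8.43. LAMA3, a laminin-332 chain gene, rose by 0.45 ± 0.04. KRT5, the basal keratin gene, fell by 0.48 ± 0.03 with 11.47 to 11.95 in GFP and 10.67 to 11.54 in CDKN2A samples, without overlap within any chemical. KRT14, its pairing partner, was lower by 0.29 ± 0.08 against GFP but higher by 2.84 against FAT1, whose samples ranged from 4.06 to 5.75. The KRT14 difference from GFP was -0.60 with CSC, 0.12 with BaP and -0.36 with NNK. In 8 of the 16 members the difference varied with the chemical, where 1.18% of all genes did so. KRT5 and KRT14, which were among them, had mean counts of 2406 and 196, against a median of 25 for all genes tested. This test called deeply counted genes more often, so the share of all genes is not a like background. Squamous genes split, with S100A9 (calprotectin) up by 3.23 ± 0.20 and the kallikrein gene KLK7 down by 2.72 ± 0.39, and 3 of 9 members called in each direction.

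Genes of matrix and of YAP and TGF-beta signalling were higher in the CDKN2A line. Of 11 Hippo and YAP targets 7 rose and 2 fell, where 25.9% of all genes were higher and 25% lower. The list had a median of 0.63 and of 0.27 after arm medians were subtracted. All 7 rises were called with each chemical, where 8.05% of all genes were. CTGF, a matricellular target of YAP and of TGF-beta, ranged from 5.32 to 6.47 log2 CPM in CDKN2A and from 2.06 to 4.27 in GFP and rose by 2.94 ± 0.25. CYR61, of the same family, rose by 2.05 ± 0.14, CRIM1 by 1.34 ± 0.08 and YAP1 itself by 0.63 ± 0.07. The 250 bases before the start sites of CTGF (RefSeq symbol CCN2, GRCh38.p14, chr6:131951373-131951622, minus strand) and YAP1 (chr11:102110197-102110446, plus strand) are shown because these members rose together and TEAD factors, the partners of YAP, bind the letters GGAATG, which are in capitals.
CCN2: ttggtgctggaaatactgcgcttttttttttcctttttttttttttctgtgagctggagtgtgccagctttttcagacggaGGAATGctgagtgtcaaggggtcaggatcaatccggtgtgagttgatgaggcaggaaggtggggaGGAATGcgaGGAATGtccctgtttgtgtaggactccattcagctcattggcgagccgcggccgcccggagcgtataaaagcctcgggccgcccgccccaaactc
YAP1: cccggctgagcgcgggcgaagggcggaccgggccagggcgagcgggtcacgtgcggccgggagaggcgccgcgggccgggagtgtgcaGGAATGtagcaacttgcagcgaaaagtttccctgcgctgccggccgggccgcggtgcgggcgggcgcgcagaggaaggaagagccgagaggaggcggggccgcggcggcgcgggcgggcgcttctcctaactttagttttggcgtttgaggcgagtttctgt
The letters occurred 3 times in the CCN2 window and 1 time in the YAP1 window as printed. Searched on both strands, they were in 6 of 13 windows of the 9 list members with a RefSeq entry, and in 11.9% of all 35116 windows. A match is a description of these letters and not a site.

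TGF-beta and activin signalling had 11 of 18 genes higher and 2 lower, with a median of 0.60. For this and the other lists of this paragraph, 25.9% of all genes were called higher and 25% lower. The ligand gene TGFB1 ranged from 6.65 to 7.18 log2 CPM in CDKN2A against 4.73 to 6.37 in GFP and rose by 1.42 ± 0.12. LTBP1, which stores latent TGF-beta in the matrix, rose by 1.49 ± 0.14 and ID1, a target of BMP signalling, by 1.55 ± 0.16. SMAD3 and BMP4 fell by 0.69 ± 0.12 and 1.38 ± 0.39. Mesenchymal genes were higher in 8 of 13 cases. FN1, which encodes the matrix protein fibronectin, stood at 8.37, 8.59 and 8.93 log2 CPM as the lowest, median and highest CDKN2A sample and at 6.19, 6.56 and 7.23 in GFP, a rise of 2.04 ± 0.08. FAT1 samples ranged from 7.84 to 8.34 for FN1, above every GFP sample and below every CDKN2A sample. CDH2, the N-cadherin gene, rose by 2.57 ± 0.40 from at most 4 reads per GFP sample to between 3 and 17. VIM, the vimentin gene, went down, by 1.03 ± 0.23, with overlapping groups and at most 28 reads in a sample. The sums of the fibroblast markers, given above, overlapped between the lines. Of these 7 markers 1 passed the count filter and was called higher, by 0.53. The part of these markers was not tested. Of 12 matrix protease genes 8 were higher, among them the plasminogen activator gene PLAT (1.41 ± 0.23) and the collagenase gene MMP13, with 29 reads against 1, a ratio of 26.3 with a counting interval from 4.35 to 1072.

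Among cytokines 6 of 10 IL-1 family and CXCL members rose. For this and the lists below, 25.9% of all genes were called higher and 25% lower. IL1A, an alarmin gene, ranged from 5.95 to 6.92 log2 CPM against 4.41 to 5.76 in GFP and rose by 1.53 ± 0.13. TNFAIP3, the NF-kappaB inhibitor A20, rose by 2.15 ± 0.25, and the receptor antagonist gene IL1RN fell by 1.44 ± 0.33. Interferon-stimulated genes rose in 7 of 17 cases and fell in 3. HERC5, an ISG15 ligase gene on 4q, ranged from 4.70 to 5.79 in CDKN2A and from 1.16 to 3.64 in GFP, with log2 fold changes of 2.68 for CSC, 2.55 for BaP and 4.35 for NNK, and IFI44 rose by 1.97 ± 0.26. In FAT1 cells IFI44 was higher still, from 5.31 to 6.45 against 3.84 to 5.33 in the CDKN2A line. Against FAT1, 9 of the 17 genes were called lower in CDKN2A and 1 higher, where 26.9% of all genes were lower and 27.6% higher. Notch genes had 5 of 11 members higher and 2 lower. HEYL, a Notch target, had 52 reads over the CDKN2A samples and 0 over the GFP samples. The HEYL ratio was 15.7 against a floor of 3 reads over the 9 GFP samples. Its counting interval began lower, at 12.3, and had no upper limit. NOTCH3, a receptor gene, fell by 1.68 ± 0.12.

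Stress and metabolic programmes differed as well. Of 14 genes of the unfolded protein response 11 rose and none fell, with a median of 0.68. For this and the lists below, 25.9% of all genes were called higher and 25% lower. HSPA5, the main chaperone gene of the endoplasmic reticulum, ranged from 10.32 to 10.58 log2 CPM in CDKN2A and from 9.35 to 9.54 in GFP samples, a rise of 0.99 ± 0.04 (Q-value 4.73e-31). HYOU1, a co-chaperone gene, rose by 1.10 ± 0.07 and XBP1, the splicing-controlled transcription factor gene of this response, by 0.90 ± 0.10. Among heat shock genes, 6 of 10 rose and 1 fell, with the cytosolic chaperone gene HSP90AA1 up by 0.90 ± 0.03 and the mitochondrial HSPD1 by 0.74 ± 0.06. Of 20 genes of cholesterol and fatty acid synthesis 12 rose and SCD, a desaturase gene, fell by 0.30 ± 0.03, though its value of -0.10 with BaP did not pass. SC5D, a sterol desaturase gene on 11q, rose by 1.62 ± 0.09. NRF2 targets rose in 9 of 22 cases and fell in 4. The ferritin light chain gene FTL rose by 1.92 ± 0.04 and the cystine transporter gene SLC7A11 on 4q by 1.25 ± 0.06, but NQO1, the quinone reductase gene that is a standard NRF2 reporter, fell by 0.59 ± 0.06. FTL and FTH1 have many processed copies, so their counts are uncertain. Of the ATF4 amino acid response genes PSAT1, a serine synthesis enzyme gene, went down within a list of no common direction, with 5 of 17 members higher, 4 lower and a median of 0.07. PSAT1 ranged from 6.93 to 7.56 in CDKN2A and from 8.69 to 9.18 in GFP and fell by 1.64 ± 0.07. FAT1 samples of PSAT1 ranged from 6.72 to 7.48, and the difference from FAT1 was 0.14 with a Q-value of 0.14.

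Genes of p53 and of DNA repair were mixed or lower. Of 22 p53 pathway genes 8 were higher and 5 lower, with a median of -0.01, where 25.9% of all genes were higher and 25% lower. TP53I3, a quinone oxidoreductase gene induced by p53, rose by 1.29 ± 0.14 from between 4.26 and 5.43 log2 CPM to between 5.62 and 6.22. XPC and DDB2, the damage sensors of nucleotide excision repair, fell by 0.67 ± 0.12 and 0.83 ± 0.13, and MDM2 had a log2 fold change of -0.01 ± 0.07. Of 21 repair genes 3 rose and 10 fell, with BRCA2 on 13q lower by 1.10 ± 0.08 and FANCD2 by 1.03 ± 0.12. Targets of the aryl hydrocarbon receptor AhR, which polycyclic hydrocarbons activate, gave 3 higher and 2 lower of 8. CYP1B1, a P450 gene that activates these hydrocarbons, rose by 0.60 ± 0.05 and ALDH3A1, an aldehyde dehydrogenase gene, by 0.82 ± 0.11.

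**Figure D5:**
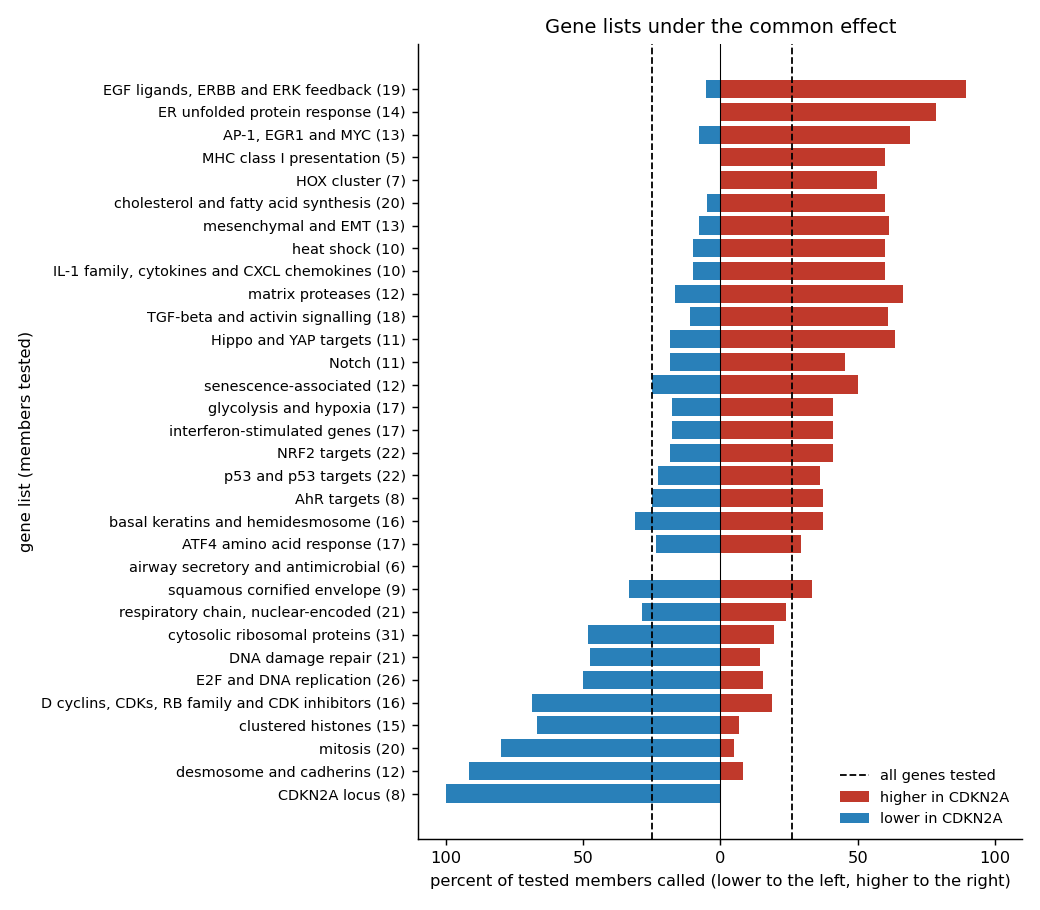
Percent of the tested members of each gene list that were called lower (left) or higher (right) in the common effect of CDKN2A over GFP, with the number tested in brackets and dashed lines at the shares of all genes, 25% lower and 25.9% higher. Mitosis (16 of 20 lower) and desmosome (11 of 12 lower) reach farthest to the left and EGF signalling (17 of 19 higher) farthest to the right among lists of 10 or more members.

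Few genes were called for a difference that varied with the chemical. The interaction of genotype and chemical passed in 168 of 14277 genes (1.18%), against 1692 at an unadjusted p under 0.05. Of the 168 genes, 43 were called in each chemical with one sign, 107 in the common effect and 23 in opposite directions with different chemicals. The genes were deeply counted, with a median mean count of 198 against 25 for all genes tested. The largest difference of the 3 was with CSC in 37 genes, with BaP in 78 and with NNK in 53. FASN, the fatty acid synthase gene, chosen after its values were seen, rose by 0.85 with CSC and 1.13 with BaP and by 0.25 with NNK. ITGB4, a hemidesmosome integrin gene also chosen so, had -0.52 with CSC, 0.14 with BaP and -0.22 with NNK. RPPH1, the RNA of ribonuclease P and the gene with the smallest Q-value of this test, differed by -0.57, -0.22 and -1.34. Across 9805 genes the log2 fold change followed the GC content of the gene with a Spearman rank correlation of 0.30 with BaP, 0.06 with CSC and -0.02 with NNK, where genes are not independent and share their libraries. After removal of a trend with GC content and exon length from each sample, 55 genes passed the interaction test, of which 52 were among the 168.

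Effects of one chemical only were rarer still. A gene was counted when it passed within that chemical, in neither other chemical, and in the contrast of that chemical with the mean of the other 2. This held for 5 genes with CSC, 22 with BaP and 12 with NNK, 39 in all (0.273%). The rule does not bar a call in the common effect, and MT1E, MET, UBE2S, CD276, BNIP3L and DST, among others, had one. Without the contrast, 939, 1155 and 903 genes were called with CSC, BaP or NNK alone, and for those the difference between chemicals was not shown. Of the 23 genes named under the rule for one chemical, MT1E and SNRPA1 kept the call in all 7 alternatives and in all 18 fits without 1 sample, and the other 21 lost it in at least 1.

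With CSC alone, 2 genes rose and 3 fell. MT1E, a metallothionein gene that binds zinc and cadmium, stood at 8.08, 8.02 and 7.95 log2 CPM in the CDKN2A samples with CSC and at 7.10, 7.16 and 6.95 in GFP. With BaP MT1E was 7.35, 7.30 and 7.63 against 7.30, 7.07 and 7.18, and with NNK 7.52, 7.64 and 7.62 against a GFP median of 7.33. MT1E was thus higher by 0.94 ± 0.11 with CSC, 0.70 above the mean of the other chemicals. Its differences of 0.20 with BaP and 0.26 with NNK had the same sign but did not pass. MT1E was also called in the common effect, at 0.50, and in the DMSO samples it was also higher, by 0.47 (Q-value 0.000203). KRT17, a stress keratin gene, was 9.52, 9.55 and 9.68 against 10.10, 10.12 and 9.97 in GFP with CSC, a log2 fold change of -0.47 ± 0.06, while it was 0.03 with BaP, 0.12 with NNK and -0.13 with DMSO, the last also called. CYP1A1, the classic AhR target, was 7.85, 8.19 and 8.68 in CDKN2A and between 8.70 and 9.11 in GFP with CSC, without overlap. CYP1A1 differed by -0.66 ± 0.11 with CSC and by 0.23 with both BaP and NNK, and in DMSO, where its counts were at most 21, by 1.15. MET, the hepatocyte growth factor receptor gene, fell by 0.62 ± 0.08 with CSC and had -0.13 and -0.17 with BaP and NNK and a call with DMSO at -0.30, and COPS2, a COP9 signalosome gene, rose by 0.44 ± 0.11. CDKN2A samples with CSC were shallower than GFP samples with CSC, and the part of depth in these calls was not tested.

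With BaP alone, 18 genes rose and 4 fell. SNRPA1, a spliceosomal gene, had 18, 6 and 6 reads in the CDKN2A samples with BaP and 38, 21 and 14 in GFP. Its levels were 4.12, 3.43 and 3.56 log2 CPM against 5.28, 5.37 and 4.94, a log2 fold change of -1.56 ± 0.34, and SNRPA1 had 0.48 with CSC and 0.14 with NNK. UBE2S, the ubiquitin-conjugating enzyme gene of the anaphase-promoting complex, was 6.32, 6.48 and 6.53 against 5.32, 5.09 and 4.85 and rose by 1.31 ± 0.22. TUBA4A, CD276 and RPS6KA4 rose by 1.24 ± 0.30, 1.19 ± 0.21 and 1.11 ± 0.20. The call with BaP only was kept in 6 of 18 fits without 1 sample for TUBA4A and in 7 of 18 for BNIP3L. With DMSO, UBE2S was also called higher, by 0.72, and CD276 by 0.57. LINC00674, annotated as a transcribed pseudogene, had the largest rise, 1.82 ± 0.37, but it rests on 1 sample: the CDKN2A samples with BaP had 2064, 135 and 105 reads. Without CDKN2A replicate 1, the remaining levels of LINC00674 with BaP were 7.61 and 7.40 log2 CPM against 7.26, 7.23 and 6.96 in GFP. BNIP3L, a mitophagy receptor gene, fell by 0.90 ± 0.16 and C9orf78 by 0.81 ± 0.16, and both were also lower with DMSO, by 0.79 and 0.35 on the log2 scale. The 16 genes that rose with BaP only and whose mean count reached 10 had a median GC content of 58.5% against 46.5% for all 9805 genes. After the GC correction 1 gene was called with BaP only, and without GFP replicate 1 with BaP the count was also 1. The part of GC content in these rises was not tested further.

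With NNK alone, 5 genes rose and 7 fell. TP63, the master regulator gene of basal cells, was 7.95, 8.17 and 8.21 log2 CPM in CDKN2A and 7.52, 7.83 and 7.71 in GFP with NNK, a rise of 0.49 ± 0.11, against -0.26 with CSC and 0.18 with BaP. TP63 was also called higher with DMSO, by 0.34. The call of TP63 with NNK only was kept in 2 of 7 alternatives and in 6 of 18 fits without 1 sample. NCL, the nucleolin gene of ribosome biogenesis, rose by 0.41 ± 0.07, from 9.77, 9.48 and 9.38 in GFP to 9.91, 9.97 and 10.05. DLG1, a polarity scaffold gene, rose by 0.46 ± 0.09, DST, a plakin gene, by 0.27 ± 0.04 and the chaperone gene HSP90AB1 by 0.20 ± 0.05. Among the falls RMRP, the RNA of a ribonuclease that processes ribosomal RNA, was 9.81, 9.84 and 9.68 in CDKN2A and 10.43, 10.42 and 10.64 in GFP with NNK. RMRP groups did not overlap with NNK and differed by -0.70 ± 0.10, whereas the difference was -0.05 with CSC and 0.06 with BaP. SNORD68, HIST1H4K and HIST1H4D fell by 1.79 ± 0.40, 1.42 ± 0.25 and 0.80 ± 0.16, and TECR, an enoyl reductase gene of fatty acid elongation, by 1.02 ± 0.19. With DMSO, SNORD68 was also called lower, by a log2 fold change of -1.33, and NCL and HSP90AB1 higher, by 0.15 and 0.12. HIST1H4K and HIST1H4D have near-identical copies and are uncertain.

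Few genes were called for a line difference that changed between the carcinogens and DMSO. With 3 DMSO samples of each line, few calls do not show that the differences were equal. FKBP10, for one, had a change of 2.45 that was not called (Q-value 0.0786). A direct test over 24 samples gave 4 of 14383 genes (0.0278%), with 1108 at an unadjusted p under 0.05. SLC7A11 was higher in CDKN2A by 0.51 ± 0.09 more with the carcinogens than with DMSO (Q-value 0.00335), and ASPH, an aspartate hydroxylase gene, by 0.43 ± 0.09 more. The chromatin gene DEK was lower in CDKN2A in both settings and by 0.31 ± 0.06 less so with the carcinogens, with log2 fold changes of -0.75 and -1.03. DDIT4, a stress-induced mTOR inhibitor gene, had a difference of -0.42 ± 0.09, with 0.05 under the carcinogens and 0.50 with DMSO. Of the 7269 genes of the common effect 7186 were tested with DMSO, and 6917 (96.3%) had the same sign there, 4630 (64.4%) with a call and 2 with a call in the opposite direction. Of the 39 genes of one chemical 30 had the same sign with DMSO and 17 (43.6%) were called with it. The 6 DMSO samples share no sample with the 18, but they share the lines.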

How the data were processed

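AALE cells were profiled by SFL RNA-seq, with pooled and barcoded libraries read in single 75-base reads. The deposited values are raw counts per gene symbol, which the authors made by trimming (cutadapt 1.12), quality control (FastQC 0.11.5), alignment to hg19 (STAR 2.5.2b) and counting (featureCounts). The strand setting is not given in the sources used here. Genes with a mean count above 1 over the 18 samples were tested with limma-voom (limma 3.58.1, edgeR 4.0.16 TMM factors, R 4.3.3) on genotype and chemical, with Benjamini-Hochberg adjustment at 0.05. Levels are log2 CPM with a prior count of 2, scaled by TMM over 36 samples. Named were CDKN2A and its locus genes, the 15 largest rises and falls among genes called in each chemical whose mean count reached 10 and whose lines did not overlap, the 5 largest rises and falls of one chemical, 4 members of each list with the smallest p, and marker genes. The 14 genes at the centromere end of 9p, the genes named near its telomere and TPM2 were chosen after their values were seen. So were FASN, ITGB4, RPPH1, JUN, MDM2, SPRY2, KRT5, KRT14 and CDH3, with other list members outside these rules. The members and lists were chosen with earlier results of these data known. edgeR's quasi-likelihood test, DESeq2 1.42.0, its size factors, other count filters, a replicate block, removal of a trend with GC content and exon length (loess span 0.3) and fits without 1 sample were the alternatives, and subtraction of arm medians was added after seeing the data. Annotation and positions matched 25095 of 27978 symbols (89.7%). Replicates of a group differed by 1.13 to 1.48 times sampling noise (chi-square over degrees of freedom), so none was counted as a copy. Counting intervals cover counting error only. Some genes that met these rules are not reported here.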

Additional observations from a re-analysis of the deposited data

Results flagged for a closer look

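The CDKN2A effect differed among CSC, BaP and NNK in 168 genes by the interaction test, and between the 3 carcinogens and DMSO in 4 genes by a direct test. For the named genes of one chemical, the effect in that chemical was set against the mean of the other chemicals on the log2 scale. With CSC this difference was 0.70 for MT1E and 0.61 for COPS2, and -0.89 for CYP1A1, -0.47 for MET and -0.55 for KRT17. With BaP it was 1.86 for LINC00674, 1.06 for UBE2S, 1.37 for TUBA4A, 1.01 for CD276 and 0.99 for RPS6KA4, and -1.87 for SNRPA1, -0.72 for BNIP3L and -0.85 for C9orf78. With NNK it was 0.53 for TP63, 0.50 for DLG1, 0.44 for NCL, 0.26 for DST and 0.28 for HSP90AB1, and -1.96 for SNORD68, -1.26 for HIST1H4K, -1.13 for TECR, -0.86 for HIST1H4D and -0.71 for RMRP. LINC00674 rests on CDKN2A replicate 1 with BaP, and SNORD68 had 3 reads in GFP replicate 3 with NNK.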

How the results depend on the processing

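No count of calls over all genes and no named effect reversed, but medians of some lists did. The squamous list went from 0.30 to -0.31 without a count filter, and basal keratins from 0.04 (6 higher, 5 lower) to -0.05 (6 higher, 7 lower) with the GC and length correction and to -0.13 with arm medians subtracted. The p53 list went from -0.01 to at most 0.06 under 6 of the alternatives, and to 0.0035 with arm medians subtracted. The airway secretory list went from -0.01 to at most 0.10, and the ATF4 list from 0.07 to -0.03 with arm medians subtracted. The IL-1 and CXCL list had a median of 1.56 among genes whose mean count reached 10 and 0.35 without a filter, against 0.76. The 168 interaction genes became 50 with DESeq2 and 55 with the GC and length correction, and the 39 genes of one chemical became 12, 23 and 8 with DESeq2, no count filter and that correction. CSC only gave 2 with DESeq2. BaP only gave 37 with edgeR, 8 with DESeq2, 7 without a filter and 1 with the correction. NNK only gave 2 with DESeq2 and 3 with the correction. The DMSO count was 3415 with DESeq2, and carcinogens against DMSO gave 2 with edgeR and 1 with DESeq2. The cause of these changes was not tested.

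Leaving out 1 sample gave 6901 to 7231 common genes, 3283 to 4512 with CSC, 3112 to 4580 with BaP, 2904 to 4209 with NNK, 1763 to 2185 in each chemical, 4620 to 4956 with DMSO and 7383 to 7695 against FAT1. Interaction genes ranged from 76 to 190, with 76 without GFP-BaP replicate 1, 99 without GFP-NNK replicate 3, 102 without CDKN2A-BaP replicate 2 and 106 without CDKN2A-CSC replicate 3. Genes of one chemical ranged from 19 to 54 (CSC 3 to 7, BaP 1 to 28, NNK 5 to 20), carcinogens against DMSO from 1 to 15, and the CDKN2A level difference from -1.16 to -1.04.

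With the replicate block within chemical, 7049 common genes passed and carcinogens against DMSO gave 12, and the block changed the call of 0 of the 170 named common effects and 1 of 23 named effects of one chemical, TP63 with NNK (0.45, adjusted p 0.115). Deviations of same-numbered samples correlated between -0.04 and 0.06 over 9 pairs, so they showed little sign of pairing by number. With BaP, however, replicate 1 was the deepest sample in CDKN2A (1179828 reads), GFP (1034225) and FAT1 (1382666) alike. Whether same-numbered samples shared their handling was not tested.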

Other observations

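The gene groups below were not described above, and their counts stand beside 25.9% of all genes called higher and 25% called lower. Of 29 HOX genes listed, 7 passed the count filter, and 4 of these were higher in the CDKN2A line and none lower. HOXC6, HOXC8 and HOXC9 passed the filter through their CDKN2A reads, which favours a rise. Without a count filter 5 of 21 HOX genes were higher and none lower. HOXC6 had 36 reads over the CDKN2A samples and 0 over the GFP samples, and HOXC8 had 20 against 0. Against a floor of 3 reads over the GFP group, the ratios were 10.9 for HOXC6 and 6.04 for HOXC8. Their counting intervals began lower, at 8.39 and 4.47, and had no upper limit. HOXC9 had 23 reads against 1, a ratio of 20.8 with a counting interval from 3.38 to 858. Of 31 cytosolic ribosomal protein genes 6 were higher and 15 lower than in GFP, and against FAT1 27 were lower and 0 higher, where 26.9% of all genes were lower and 27.6% higher. Of 17 glycolysis and hypoxia genes 7 were higher and 3 lower, and of 21 nuclear-encoded respiratory chain genes 5 were higher and 6 lower, shares near those of all genes. Of 12 senescence-associated genes 6 were higher and 3 lower. Of 6 airway secretory and antimicrobial genes 0 were called, and of 5 genes of MHC class I presentation 3 were higher, though HLA reads are shared between near-identical genes and are uncertain.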
